A study of Mus musculus with 30 samples.

Results

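The genes of heat shock proteins and their co-chaperones were examined in RNA sequencing libraries of the left ventricle from 30 male C57BL6J mice. The list held 44 genes, taken by name from 49671 genes in the table of the peptide study and 55263 genes in the table of the antibody study. They were selected on function and on 1 measured value, the mean count over the hearts of a study, which had to reach 10. All 44 genes reached it in both tables. The lowest mean was 20.7 counts, for Hspb3 in the peptide study, and the lowest in the antibody study was 21.6 counts, for Hspa1a, so no listed gene lay outside the threshold.

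In the peptide study, 7 wild type mice administered Aβ42 were compared with 7 wild type mice administered ScrAβ42. Aβ42 is the amyloid beta peptide that aggregates most readily, here the recombinant human form, and ScrAβ42 has the same residues in scrambled order. Injections were intraperitoneal and daily for 4 weeks, beginning at 12 weeks of age per the labels, where the methods allow for a somewhat younger start. The daily dose is 1 mg in the labels and stands in micrograms in the methods. In the antibody study, 8 wild type mice administered 3D6, an antibody that neutralises Aβ, were compared with 8 wild type mice administered a control antibody (Con). The methods describe a high-fat diet with weekly antibody over months. The paper takes the sequenced hearts from that study and describes no Aβ42 given to its mice. The design text of the series states that these mice had also received Aβ42. This conflict over what both antibody groups share is not settled here. The labels put the start of that diet at 12 weeks of age. Each library is the left ventricle of 1 mouse, named below as in the labels (group and mouse number), and the figures write Aβ42 as Ab42.

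Chaperones hold newly made or damaged proteins in a foldable state. HSP70 proteins bind exposed stretches of a client with the help of J-domain proteins (the Dnaj genes) and release it through nucleotide exchange factors such as Hsph1 and Bag3, while HSP90 proteins finish the folding of kinases and receptors with co-chaperones such as Stip1 and Ahsa1. Small heat shock proteins hold unfolded proteins without using ATP and are abundant in heart muscle, where Cryab and Hspb6 bind filament proteins. Under stress, heat shock factor HSF1 binds heat shock elements, alternating runs of GAA and TTC, in the promoters of the inducible genes. The 44 genes were described here in 6 classes, namely 10 inducible genes, 17 constitutive cytosolic genes, 5 of the mitochondria, 5 of the endoplasmic reticulum (ER), 5 muscle small heat shock genes and 2 heat shock factors. HSP here means a heat shock protein.

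Total counts ranged from 4478991 to 6015767 per peptide heart and from 6397192 to 8310478 per antibody heart, and the tables were scaled and tested separately. Values in CPM are counts scaled to the effective total of the library. Summed CPM of 6 ventricular cardiomyocyte markers ran from 38667 to 83062 over the peptide hearts and from 44032 to 57046 over the antibody hearts. In such bulk tissue, fewer cells of a type and less RNA per cell cannot be told apart. The 5 atrial cardiomyocyte markers summed to a median of 1158 CPM with Aβ42 (range 12.4 to 8417) and 10.5 CPM with ScrAβ42 (3.82 to 3665), so atrial RNA differed between hearts of the same ventricle label. Of all libraries, 4 stood apart for the chaperone genes. The Aβ42 heart Abeta42_3457 was the highest of its study for 12 of the 44 genes and the lowest for 16, and had the highest atrial marker sum (8417 CPM), the highest adipocyte marker sum (521 CPM) and the lowest ventricular marker sum (38667 CPM). The ScrAβ42 heart ScrAbeta42_3449 was the highest for 12 genes. The control antibody heart Con_22 was the lowest of its study for 24 of the 44 genes, and Con_8 was the highest for 16. Such counts over all genes are not given, so whether these hearts stand apart for chaperone genes in particular is not shown. Estimates without one of these hearts are given beside several of the results.

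**Figure D1:**
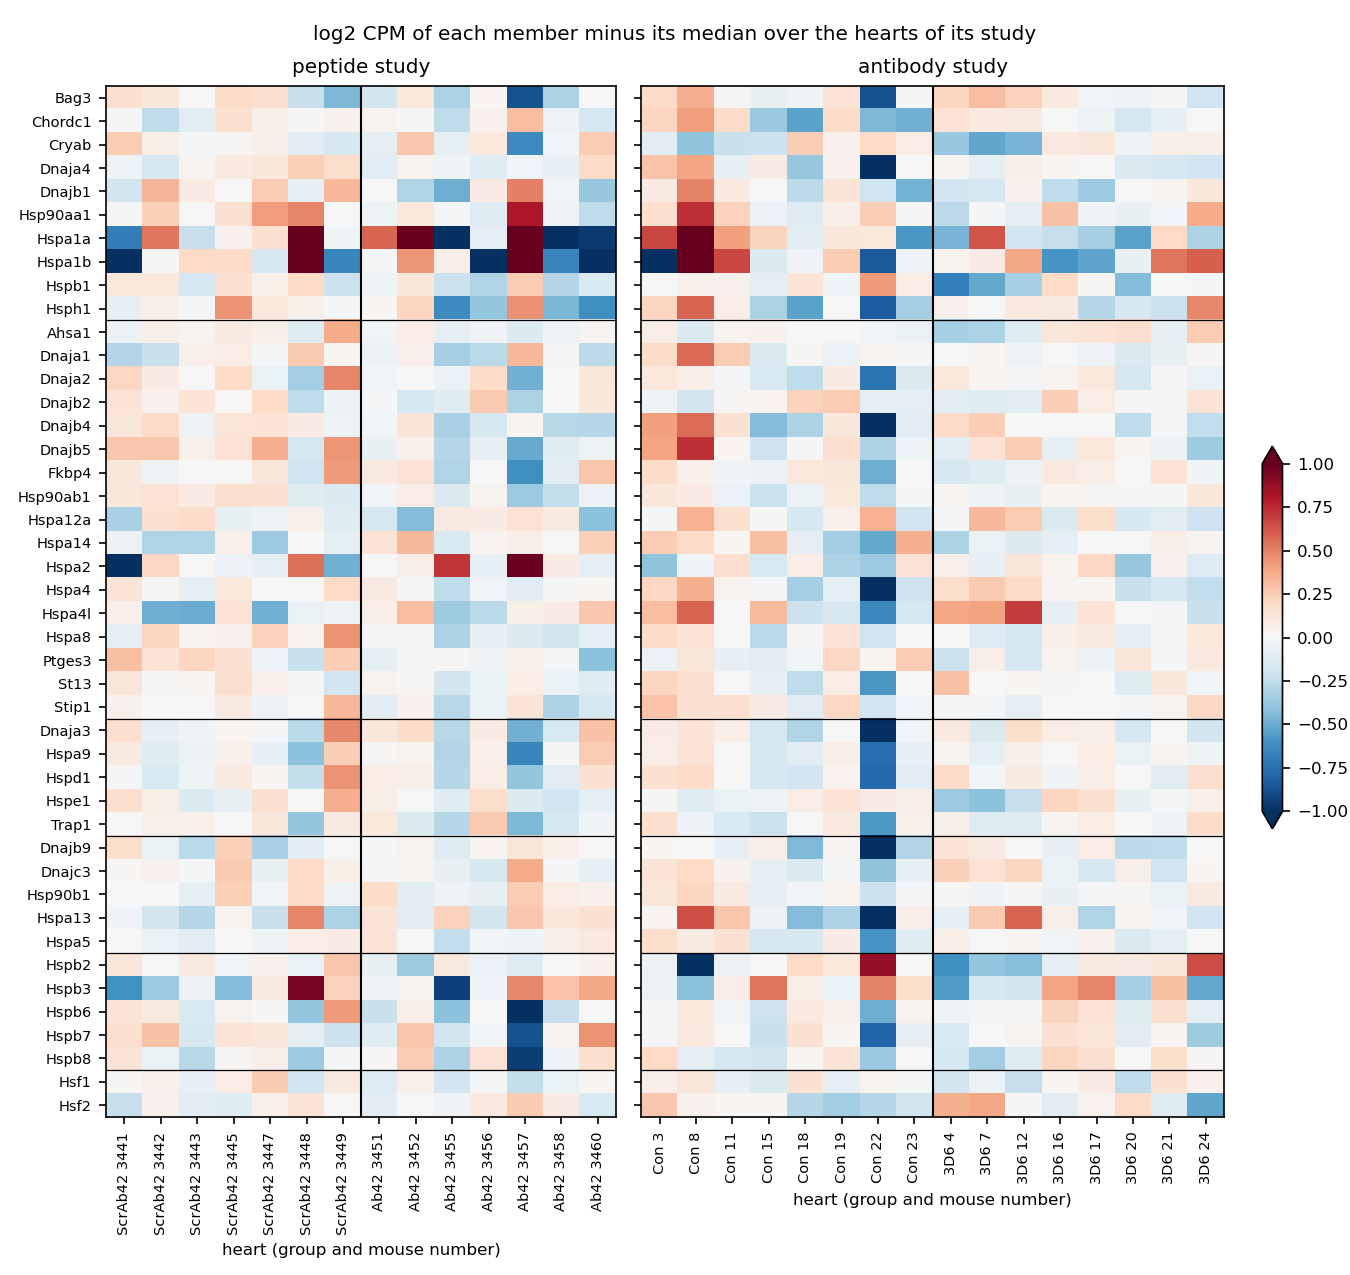
Colour gives the log2 CPM of each of the 44 genes (rows, with horizontal lines between the 6 classes) minus its median over the hearts of the same study, for each heart (columns, with a vertical line between the groups). Abeta42_3457 (Ab42) and Con_22 stand out as columns, the latter being the lowest of its study for 24 of 44 genes.

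The promoters of the Hspa1 pair are shown because these genes varied most of the list between peptide hearts and because the 2 copies can hardly be told apart by sequence. Hspa1a and Hspa1b encode the stress-induced HSP70 and lie on chromosome 17, minus strand, at chr17:34969190-34972156 and chr17:34956436-34959238 of GRCm38. Each annotated transcript has 1 exon, and the coding sequences of 1923 and 1926 bases differ by 10 substituted, inserted or deleted bases, an identity of 99.48%. Reads from either copy can therefore be assigned to the other, and the CPM of both genes is also given as a sum below. The third sequence belongs to Hspb1 (HSP25 in the mouse), a small heat shock protein that also caps actin filaments. The sequences are the 200 bases before the RefSeq transcript start (GRCm38.p6, 5′ to 3′ on the strand of the gene), with capitals for 8-base matches to GAANNTTC or TTCNNGAA, where N is any base. The windows lie at chr17:34972157-34972356 and chr17:34959239-34959438 on the minus strand and at chr5:135887719-135887918 on the plus strand.
Hspa1a: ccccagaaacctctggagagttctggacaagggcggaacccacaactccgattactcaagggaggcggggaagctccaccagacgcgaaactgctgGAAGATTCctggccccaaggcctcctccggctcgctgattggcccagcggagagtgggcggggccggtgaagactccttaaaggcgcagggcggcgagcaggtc
Hspa1b: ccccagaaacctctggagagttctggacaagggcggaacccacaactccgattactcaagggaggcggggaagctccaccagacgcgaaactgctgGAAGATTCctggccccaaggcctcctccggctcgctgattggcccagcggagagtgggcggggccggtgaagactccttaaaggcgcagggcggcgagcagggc
Hspb1: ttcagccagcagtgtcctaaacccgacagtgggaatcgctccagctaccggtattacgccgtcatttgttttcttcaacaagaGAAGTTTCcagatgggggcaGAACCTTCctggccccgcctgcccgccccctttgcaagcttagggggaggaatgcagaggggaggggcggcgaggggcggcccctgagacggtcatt

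The Hspa1a and Hspa1b stretches differed at 1 of 200 bases and carried the same match, GAAGATTC, which begins 104 bases before the start in both genes. Hspb1 had 2 matches, beginning 117 and 97 bases before its start. Hspe1 and Hspd1, the co-chaperonin and chaperonin of the mitochondrial matrix, are transcribed away from each other on chromosome 1. The same 28 bases, read on either strand, stand before the Hspe1 start and before 1 of the RefSeq starts of Hspd1 (chr1:55088054-55088081). Here 3 overlapping matches form 1 run of 18 capitals. Another RefSeq start of Hspd1 lies upstream of this run, and its window held no match. The inducible co-chaperone gene Dnaja4 carried 2 separate matches, the first at chr9:54699464-54699481 on the plus strand.
Hspe1: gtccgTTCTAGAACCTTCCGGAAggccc
Hspd1: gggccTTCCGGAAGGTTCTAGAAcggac
Dnaja4: tccgcGAACGTTCtgggc

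Over windows of 300 bases (250 before to 50 after the start, RefSeq, both strands read since each motif is its own reverse complement, and matches of the 2 motifs may overlap), 17% of 27025 genes held at least 1 match. Windows were at hand for 35 of the 44 genes, and 15 of them (42.9%) held a match. By class the share was 7 of 8 inducible genes, 3 of 14 constitutive cytosolic, 2 of 4 mitochondrial, 3 of 4 muscle small heat shock, 0 of 4 ER genes and 0 of 1 heat shock factor. A longer run with both motifs overlapping was found in 0.66% of all genes and in 4 of the listed genes, Hsph1, Chordc1, Hspd1 and Hspe1. A match is a sequence of letters in this window and no evidence of binding.

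Levels can be compared between genes only per length, and for this TPM (transcript abundance scaled for length and library total) was computed for the antibody study from its estimated counts and annotated transcript lengths. In the 8 control antibody hearts the 44 genes spanned 3 orders of magnitude. Cryab, the small heat shock protein alphaB-crystallin that binds desmin, had the highest level at 1949 ± 253 TPM (SD, n = 8), and its range of 1501 to 2268 TPM lay above that of the next gene. Hspb7, at 1011 ± 181 TPM, Hspb6, at 880 ± 110 TPM, and Hspa8, at 779 ± 67.6 TPM, followed in that order. The ranges of neighbours in this trio overlapped, whereas those of Hspa8 and Hsp90ab1 (528 ± 47.1 TPM) did not, nor did those of Hsp90ab1 and Hspb1 (334 ± 35.7 TPM). From Hspb1 down to the last gene, each range overlapped with the next. At the bottom stood Hspa1a, at 1.71 ± 1.03 TPM, and Hspa1b, at 1.52 ± 0.878 TPM, the 43rd and 44th of the order. Each copy of the stress-induced HSP70 was at percentile 53.0 and 51.7 of the genes with any counts in these control hearts. Its constitutive relative Hspa8 was at percentile 99.6. Genes with too few counts to be tested are part of that ranking. It therefore does not place Hspa1a or Hspa1b at a middle level among the genes tested. These ranks are per copy, and the level of both copies together is higher and was not ranked. Inducible genes made up 33.7% of the TPM of the list and muscle small heat shock genes 30.0%, the former through Cryab above all.

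**Figure D2:**
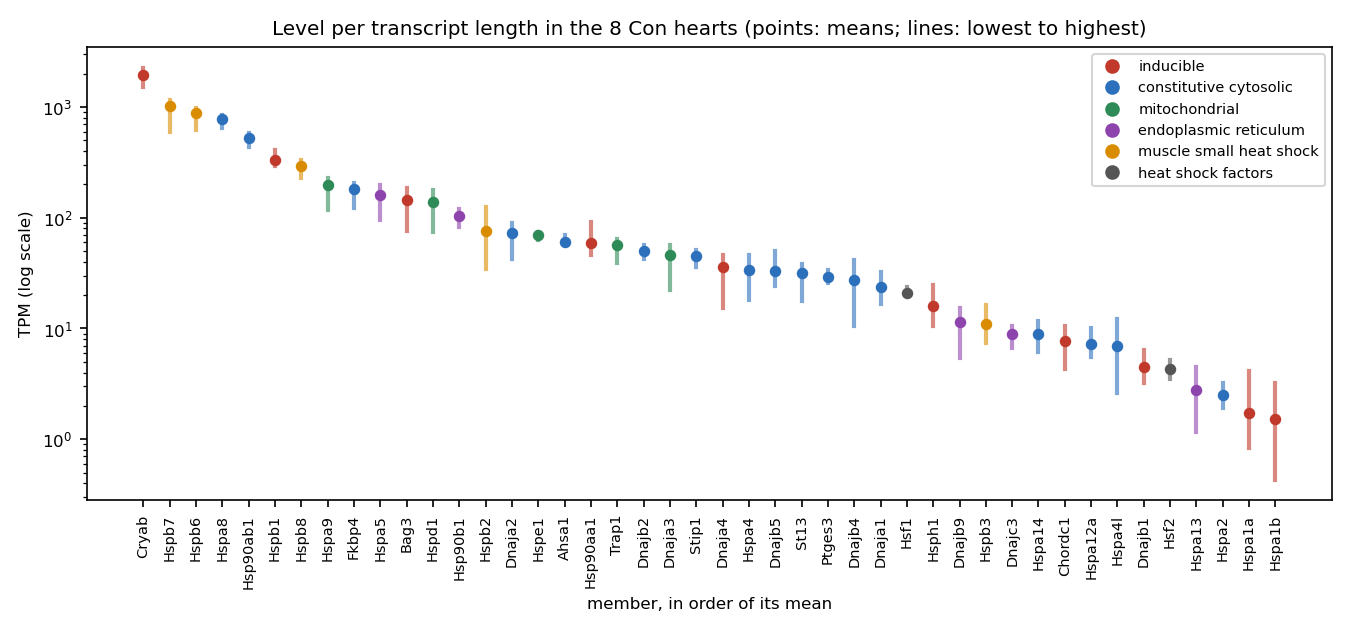
Points are mean TPM of the 44 genes in the 8 Con hearts on a log axis, lines run from the lowest to the highest heart, and colours give the 6 classes. Levels run from 1949 TPM for Cryab to 1.52 TPM for Hspa1b, and nearly all neighbours overlap.

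Which chaperone genes differ between hearts exposed to Aβ42 and to its scrambled control was asked in the peptide study. None of the 44 genes passed an adjusted p of 0.05 in the quasi-likelihood test of edgeR, adjusted by Benjamini and Hochberg over 11985 genes, where 0% of genes passed. At an unadjusted p under 0.05 there were 4 of 44 genes, against 6.51% of all genes tested (780 genes). Of these 4, 1 was higher (Hspa14), against 3.59% of all genes, and 3 were lower (Hspa8, Dnajb4 and Dnajb5), against 2.92%. The groups overlapped for 44 of 44 genes, while 0.0918% of all genes had groups that did not. The fold change was below 0 for 31 of the 44 genes and above 0 for 13, beside 50.5% of all genes above 0. The median log2 fold change of the list was -0.07, beside 0.00 over all genes tested. Cell type markers had medians of -0.16 (ventricular cardiomyocyte), -1.37 (red cell) and -0.77 (skeletal muscle). Their medians were 0.89 for mesothelium, 2.31 for atrial cardiomyocyte and 2.49 for adipocyte markers. The part of tissue makeup in the chaperone values was not tested beyond the atrial covariate. Adjusted p-values of the 44 genes were at least 0.639. At an unadjusted p under 0.05, scaling to the total count gave Hspb6 in place of Dnajb4, and DESeq2 gave Hsp90ab1 beside the same 4 genes. DESeq2 called 12 genes of the whole table and 0 of the 44, and limma-voom called 0 genes (731 and 688 genes at an unadjusted p under 0.05).

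In the antibody study, 0 of 44 genes passed an adjusted p of 0.05 in edgeR's quasi-likelihood test over 12146 genes, and again 0% of all genes did. At an unadjusted p under 0.05 there was 1 gene, Hspb1, which was lower with 3D6, against 3.66% of all genes tested (444 genes), or 2.36% lower and 1.29% higher. Other settings, leaving out each heart among them, gave 0 to 3 genes, all lower, beside 2.1% to 6.29% of all genes. Scaled to the total count, these were Hspa1a and Dnaja1 beside Hspb1. When the mitochondrial share of counts was in the fit, they were Hspa1a, Dnaja1 and Dnajb5 without Hspb1. DESeq2 and limma-voom also called 0 genes (447 and 431 at an unadjusted p under 0.05). The fold change was above 0 for 23 of the 44 genes and below 0 for 21, beside 47.2% of all genes above 0, with a median log2 fold change of 0.02 beside -0.01 over all genes. With the mitochondrial share of counts in the fit, the tally was 15 above 0 and 29 below, beside 50.1% of all genes above 0. The 95% interval of the log2 fold change lay within 0.5 of 0 for 36 of 44 genes with Aβ42 and for 38 of 44 with 3D6. The peptide and antibody studies share no mice. The estimate was below 0 in both studies for 16 genes and above 0 in both for 8, and it differed in sign for the other 20.

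**Figure D3:**
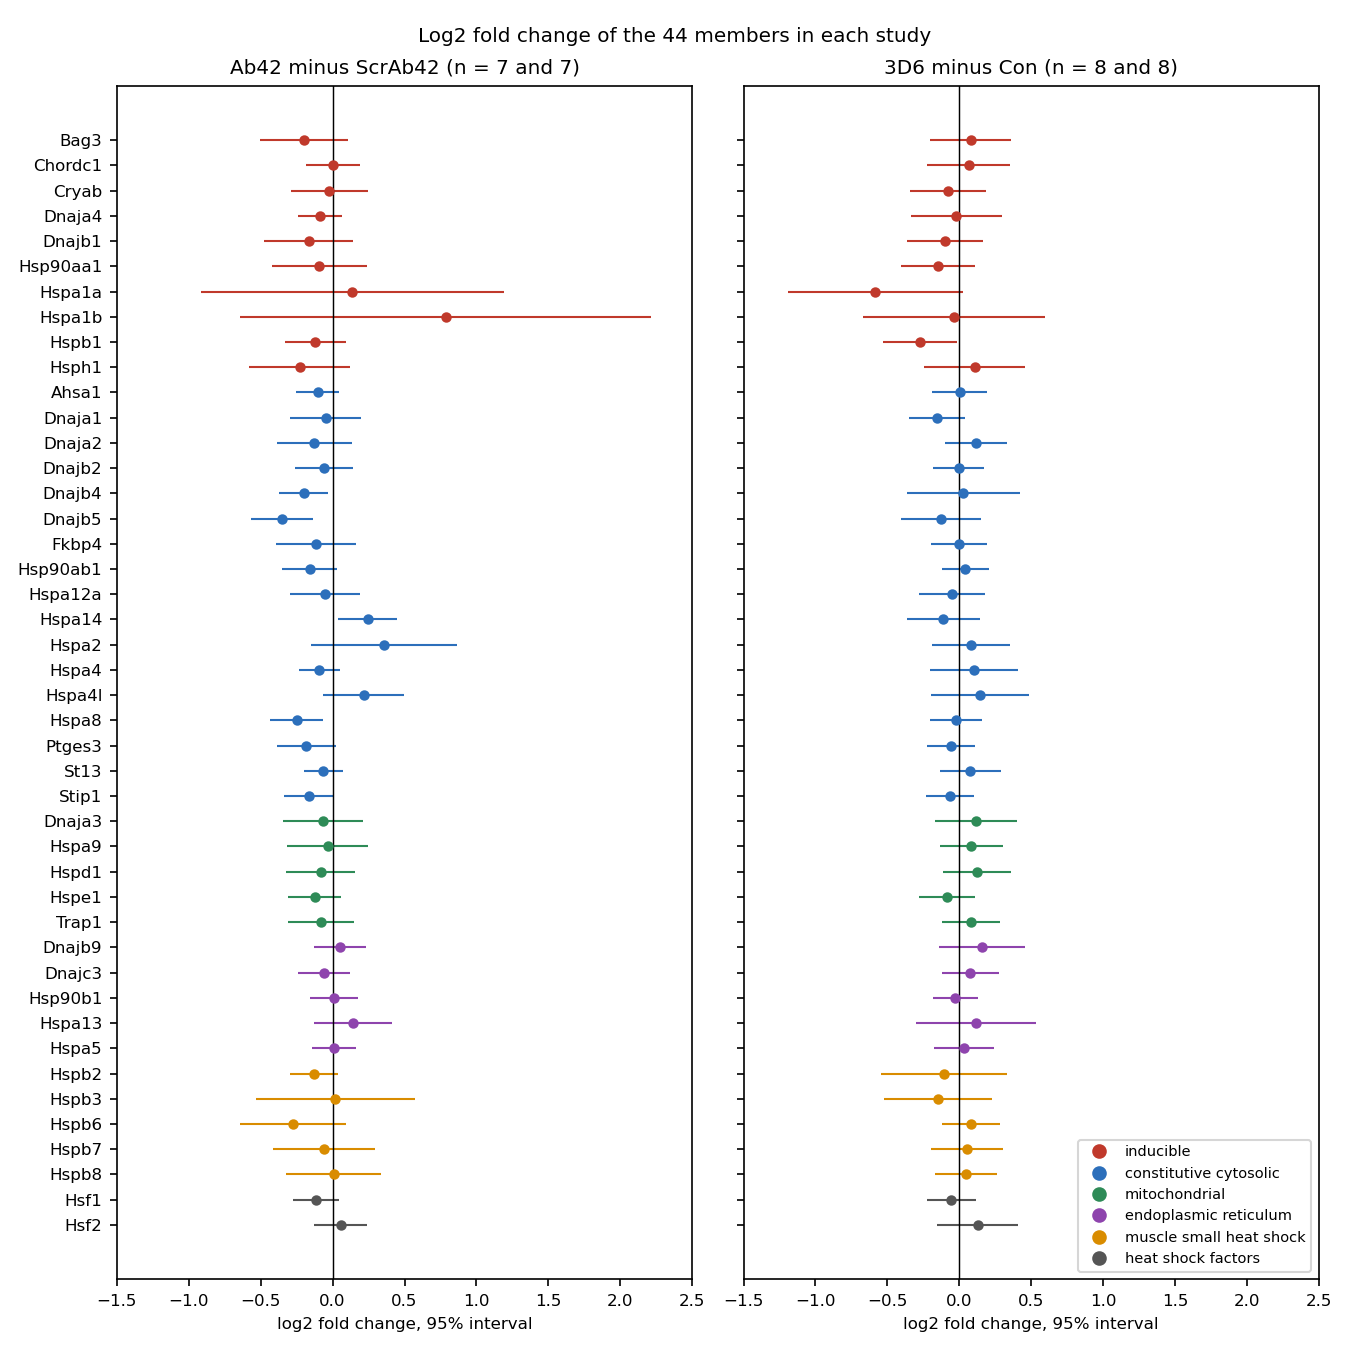
Points are log2 fold changes of the 44 genes with 95% intervals, for Ab42 against ScrAb42 (left, n = 7 and 7) and for 3D6 against Con (right, n = 8 and 8), coloured by class. In the peptide study 31 of 44 points lie below 0, and the widest intervals in both panels belong to Hspa1a and Hspa1b.

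The rule set inducible genes against the constitutive cytosolic and mitochondrial ones. In the peptide study the 10 inducible genes had a median log2 fold change of -0.09 (7 below 0), the 17 constitutive cytosolic genes -0.10 (14 below 0) and the 5 mitochondrial genes -0.08 (5 below 0). Adjusted for the atrial score, 4 of these 5 turned above 0 (Hspa9, Hspd1, Trap1 and Dnaja3, at 0.05 to 0.15), and without ScrAbeta42_3449 the mitochondrial median was 0.00. Without Abeta42_3457 the inducible median was -0.22 with 9 of 10 genes below 0, and without ScrAbeta42_3448 it was -0.05. In the antibody study the inducible median was -0.06 (7 of 10 below 0), the constitutive cytosolic median was 0.00 (9 of 17 below 0) and the mitochondrial median was 0.08 (1 of 5 below 0). Without Con_22 this last median was 0.02. Inducible minus other genes came to 0.00 with Aβ42 and -0.07 with 3D6, as a difference of median log2 fold changes. The same difference of median levels, taken heart by heart, had an SD between hearts of 0.24 and 0.22 on the log2 scale. That SD is the spread of single hearts and not the error of a group difference, so it tests neither value. With Aβ42 the difference of median fold changes ran from -0.14 (without Abeta42_3457) to 0.08 (without ScrAbeta42_3448) when each heart was left out in turn, and with 3D6 from -0.13 (without 3D6_21) to -0.01 (without Con_8). The inducible median with 3D6 was 0.02 without Con_8.

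How much the classes varied between hearts of a group is given as a description, with no test. Ranked by within-group SD of log2 CPM among genes of similar level, the inducible genes had a median percentile of 75.2 with peptide and 65.7 with antibody, beside 39.3 and 31.5 for the constitutive cytosolic genes. The muscle small heat shock genes were at 79.2 and 47.1, the mitochondrial genes at 61.1 and 33.5, the ER genes at 42.9 and 28.5, and all 44 genes at 56.6 and 39.8. Inducible genes themselves differed, with Dnaja4 at percentile 24.6, Chordc1 at 45.7 and Cryab at 49.7 in the peptide study. In the antibody study these genes stood at 80.8, 69.5 and 49.7. Hspa1a stood at percentile 97.0 and Hspa1b at 98.8 in the peptide study, and at 76.4 and 88.6 in the antibody study. These SDs include the outlying hearts. Abeta42_3457 was the highest heart for 7 and the lowest for 2 of the 10 inducible genes, and the lowest for 3 of 5 muscle small heat shock genes. Con_8 was the highest for 8 of the 10 inducible genes. Percentiles without these hearts are not given, so a spread of the class is not shown apart from them.

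Hspa1a, with mean counts of 39.1 and 21.6 per heart in the peptide and antibody tables, ranged from 1.35 to 18.7 CPM with Aβ42 (median 5.06) and from 3.35 to 13.7 CPM with ScrAβ42 (median 5.57). Hspa1b ranged from 1.19 to 39.4 CPM with Aβ42 (median 4.54) and from 1.91 to 12.2 CPM with ScrAβ42 (median 4.60). Their sum was 58.1 CPM (423 counts) in the Aβ42 heart Abeta42_3457, and lay between 3.97 and 18.6 CPM in the other 6 hearts and between 5.26 and 26.0 CPM with ScrAβ42. The groups overlapped, with 4 of 7 Aβ42 hearts below the ScrAβ42 median of 10.1 CPM and the 2 lowest hearts of the study also among them. The log2 fold change of the sum was 0.46 ± 0.54 (SE; adjusted p = 0.924, edgeR), and an exact permutation test of log2 CPM over 3432 arrangements gave a difference of -0.03 (two-sided p = 0.959). Without Abeta42_3457 the edgeR estimate was -0.41, and after adjustment for the atrial score it was -0.17, so the direction of the sum rested on 1 library. For Hspa1b the estimate was 0.79 in edgeR and -0.48 in DESeq2.

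The Hspa1 sum of the antibody mice was 15.6 CPM (106 counts) in control heart Con_8 and between 4.43 and 8.01 CPM in the other 7 controls. With 3D6 it ranged from 4.07 to 7.14 CPM (median 5.40), beside a control median of 5.45 CPM, so 6 of 8 3D6 hearts lay within the control range and 2 lay below it. The log2 fold change was -0.31 ± 0.24 (adjusted p = 0.944, edgeR) and the exact permutation test over 12870 arrangements gave -0.21 (two-sided p = 0.428). Without Con_8 the edgeR estimate of the sum was -0.02. Hspa1a alone was estimated at -0.58 ± 0.28 (unadjusted p = 0.0529, adjusted p = 0.944, edgeR), and from -0.73 (without 3D6_7) to -0.26 (without Con_8) when each heart was left out in turn. Its unadjusted p was under 0.05 in 6 of those 16 fits, with DESeq2, with scaling to the total count, with no filter on low counts and with the mitochondrial share of counts in the fit. Hspa1b was estimated at -0.04. Con_8 also had the highest sum of 9 immediate early genes, listed as markers of handling, of its study (231 CPM). The part of handling in the Hspa1 values was not tested.

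Hsp90aa1, the stress-responsive cytosolic HSP90 (chr12:110690605-110702728, minus strand), ranged from 19.05 to 39.7 CPM with Aβ42 (median 22.0) and from 22.5 to 31.8 CPM with ScrAβ42 (median 25.2). The highest heart was Abeta42_3457, while 5 of 7 Aβ42 hearts lay below every ScrAβ42 heart. The log2 fold change was -0.09 ± 0.15 with all hearts, -0.26 without Abeta42_3457 and -0.04 without ScrAbeta42_3448. With antibody it ranged from 91.8 to 142 CPM with 3D6 and from 101 to 184 CPM in controls, where Con_8 was highest, and the estimate was -0.15 ± 0.12, or -0.05 without Con_8.

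Hsph1, an HSP110 that exchanges nucleotide on HSP70, had 34.6 to 73.9 CPM with Aβ42 (median 41.0) and 50.7 to 73.3 CPM with ScrAβ42 (median 55.8). Among Aβ42 hearts, 4 of 7 lay below all controls and Abeta42_3457 lay above them. Dnajb1, the J-domain partner of inducible HSP70, had 14.1 to 28.2 CPM with Aβ42 (median 19.5) and 17.4 to 25.1 CPM with ScrAβ42 (median 20.98), with Abeta42_3457 again highest. Hspb1 had 41.8 to 61.4 CPM with Aβ42 (median 46.2) and 44.4 to 59.1 CPM with ScrAβ42 (median 55.4), and Abeta42_3457 was the highest heart here too. The estimates were -0.23 for Hsph1, -0.17 for Dnajb1 and -0.12 for Hspb1 with all hearts. Without Abeta42_3457 they were -0.365 (SE 0.14), -0.29 (SE 0.12) and -0.19 (SE 0.09). Nearest to 0, they were -0.16 for Hsph1 (without ScrAbeta42_3445), -0.10 for Dnajb1 (without Abeta42_3455) and -0.09 for Hspb1 (without Abeta42_3456).

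Leaving out Abeta42_3457 raised the number of chaperone genes with an unadjusted p under 0.05 from 4 to 9 of 44, of which 8 were lower and 1 higher, while the share of all genes tested went from 6.51% to 5.14%. The added genes were Hsp90aa1, Hspb1, Hsph1, Dnajb1 and Stip1, and their adjusted p-values (edgeR) were at least 0.776 like those of the other members in that fit. Without ScrAbeta42_3448 the count was 7 of 44, beside 10.6% of all genes, and the added genes were Ptges3, Hspa13 and Hsf1. All these added genes were named after their values were seen. The 4 inducible ones among them were at their highest in Abeta42_3457, whose library also had the highest sum of atrial markers, and the part of atrial RNA in these values was not tested beyond the covariate.

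**Figure D4:**
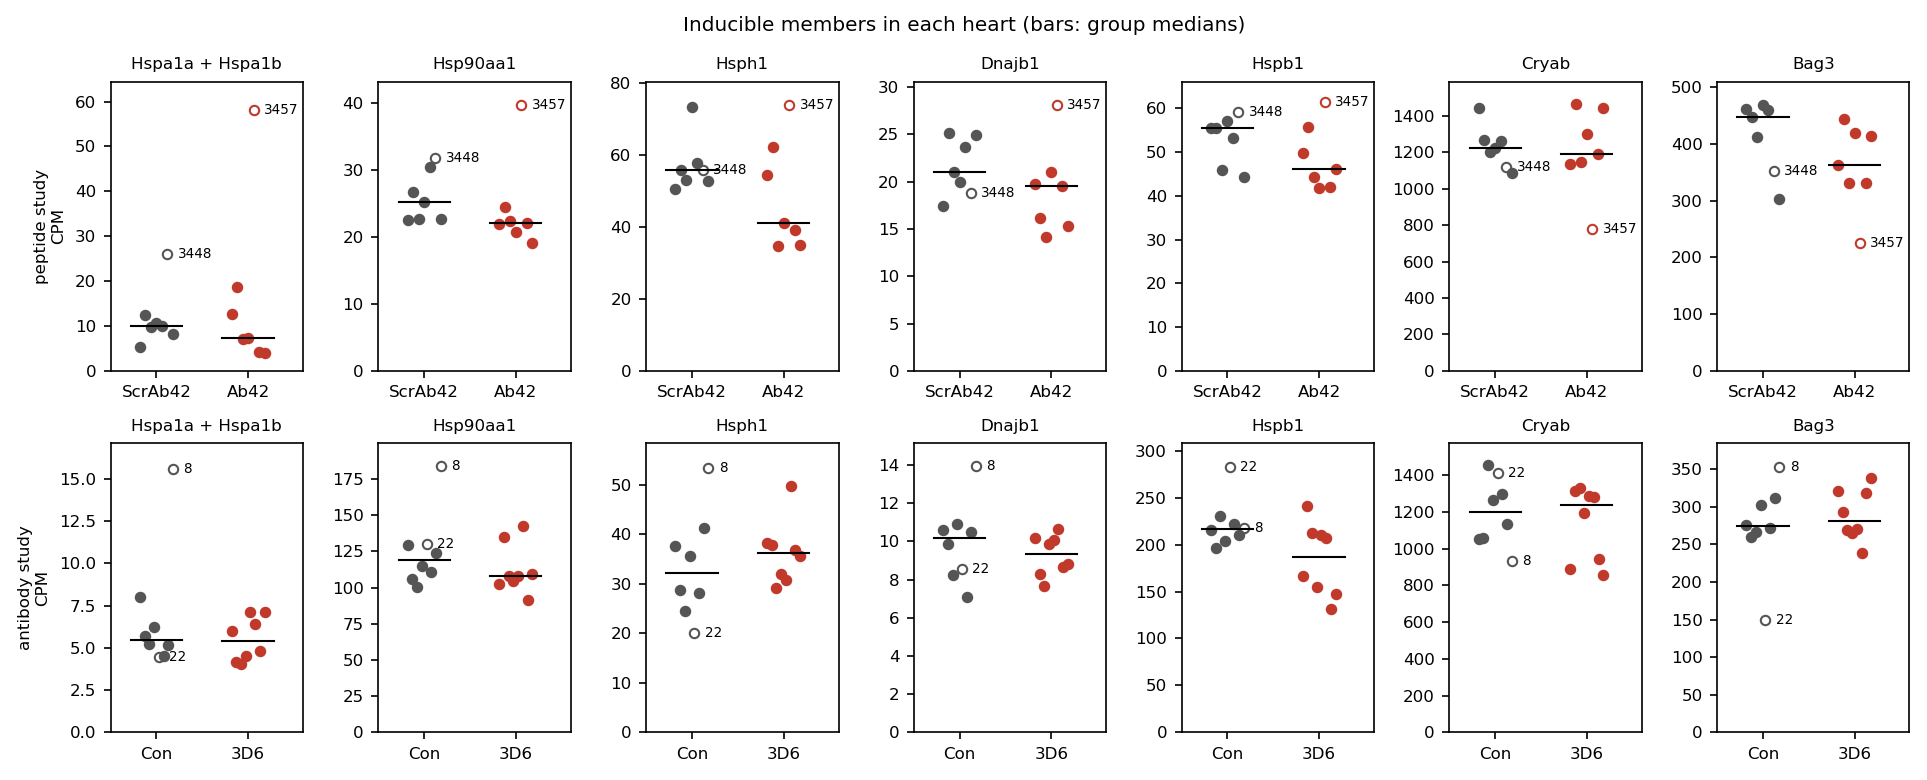
Each point is the CPM of 1 heart, with a bar at the group median, for the Hspa1 pair and 6 other inducible genes in the peptide study (top) and the antibody study (bottom). Open points mark Abeta42_3457, ScrAbeta42_3448, Con_8 and Con_22. Abeta42_3457 is highest for the Hspa1 pair (58.1 CPM), Hsp90aa1, Hsph1, Dnajb1 and Hspb1 and lowest for Cryab and Bag3.

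Among antibody mice, Hspb1 ranged from 131 to 241 CPM with 3D6 (median 187) and from 197 to 283 CPM in controls (median 217). Of the 3D6 hearts, 4 of 8 lay below every control and the other 4 lay among them. The log2 fold change was -0.27 ± 0.12 (unadjusted p = 0.0355, adjusted p = 0.944, edgeR). Its estimate ran from -0.34 to -0.21 when each heart was left out in turn, and without Con_22, the highest heart at 283 CPM, it was -0.21. The unadjusted p was no longer under 0.05 without Con_18, Con_22, 3D6_4, 3D6_7, 3D6_12 or 3D6_20, nor with the mitochondrial share of counts in the fit. Hsph1 had 29.2 to 49.8 CPM with 3D6 (median 36.2) and 20.0 to 53.4 CPM in controls (median 32.2). Dnajb1 had 7.69 to 10.7 CPM with 3D6 and 7.10 to 13.9 CPM in controls. For both genes the controls spanned the 3D6 range, with Con_8 at the top.

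Abeta42_3457 was the highest heart of its study for 7 of the 10 inducible genes but the lowest for Cryab and Bag3, and had 68.5 CPM for Dnaja4, near the middle of that study. Cryab had 779 CPM in that heart and 1137 to 1464 CPM in the other Aβ42 hearts, beside 1084 to 1443 CPM with ScrAβ42. The log2 fold change was -0.02 ± 0.12, and 0.06 without Abeta42_3457. Bag3, which links HSP70 to the disposal of damaged filament proteins, had 226 to 443 CPM with Aβ42 (median 363) and 302 to 469 CPM with ScrAβ42 (median 446). Every Aβ42 heart lay below the ScrAβ42 median, though only Abeta42_3457 lay below its lowest heart. The estimate was -0.20 ± 0.14 (adjusted p = 0.841, edgeR), or -0.12 without Abeta42_3457. Adjusted for the atrial score, the Bag3 estimate turned to 0.012. With 3D6, Cryab had 856 to 1327 CPM and Bag3 238 to 339 CPM, both inside the control ranges but for the 2 lowest Cryab hearts. Con_22 was lowest for Bag3, at 149 CPM. Cryab shares bases of its locus with Hspb2 on the opposite strand (chr9:50751325-50756636 and chr9:50751078-50752354), and whether the counting used strand is not given in the sources used here. Dnaja4 and Chordc1, the remaining inducible genes, had estimates between -0.09 and 0.07 in both studies.

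Among the constitutive genes, Hspa8 encodes HSC70, the housekeeping HSP70 of the cytosol (chr9:40800984-40810087, plus strand). It had 205 to 257 CPM with Aβ42, with 253, 257, 205, 242, 232, 225 and 239 CPM in the 7 hearts by mouse number. With ScrAβ42 it had 239 to 347 CPM (median 263). All 7 Aβ42 hearts lay below the ScrAβ42 median and 3 lay below its lowest heart. The log2 fold change was -0.25 ± 0.08 (unadjusted p = 0.00976, adjusted p = 0.689, edgeR). Among antibody mice it had 1048 to 1276 CPM with 3D6 and 982 to 1350 CPM in controls, and the estimate was -0.02 ± 0.08, so that the 3D6 hearts lay wholly inside the control range.

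Dnajb5, a J-domain protein (chr4:42949814-42959425, plus strand), had 90.1 to 132 CPM with Aβ42 (median 121) and 114 to 173 CPM with ScrAβ42 (median 153). Again all 7 Aβ42 hearts lay below the ScrAβ42 median, and 2 lay below all controls. Its log2 fold change of -0.35 ± 0.10 had the smallest p of the list (unadjusted p = 0.00289, adjusted p = 0.639, edgeR). With 3D6 the estimate was -0.13 ± 0.13, with 44.8 to 67.8 CPM with 3D6 and 46.2 to 95.1 CPM in controls, and the estimate was -0.02 without Con_8.

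Dnajb4, another J-domain protein (chr3:152178511-152210302, minus strand), had 123 to 167 CPM with Aβ42 (median 137) and 148 to 175 CPM with ScrAβ42 (median 166). Of the Aβ42 hearts, 4 lay below every control and 1 lay above the control median. The estimate was -0.20 ± 0.08 (unadjusted p = 0.0213, adjusted p = 0.702, edgeR), and 0.03 ± 0.18 in the antibody study, where Con_22 had 20.3 CPM and the other hearts 37.7 to 74.7 CPM. Hspa14, an HSP70 relative of the ribosome (chr2:3488850-3512814, minus strand), had 14.5 to 20.3 CPM with Aβ42 (median 16.9) and 12.6 to 16.7 CPM with ScrAβ42 (median 15.1). Here 6 of 7 Aβ42 hearts lay above the control median and 4 above every control, with an estimate of 0.24 ± 0.09 (unadjusted p = 0.0195, adjusted p = 0.702, edgeR). Its estimate was -0.11 ± 0.12 with 3D6, and its locus is overlapped by another annotated gene on the same strand, so that reads could be split between them. In an edgeR fit adjusted for the atrial score, Hspa14 was the 1 gene of the list that kept an unadjusted p under 0.05 in the peptide study. Of all genes tested, 7.64% (916 genes) had such a p in that fit. The list then had 15 estimates above 0 and 29 below, beside 49.1% of all genes above 0. The estimates became -0.19 for Hspa8, -0.19 for Dnajb5 and -0.16 for Dnajb4.

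**Figure D5:**
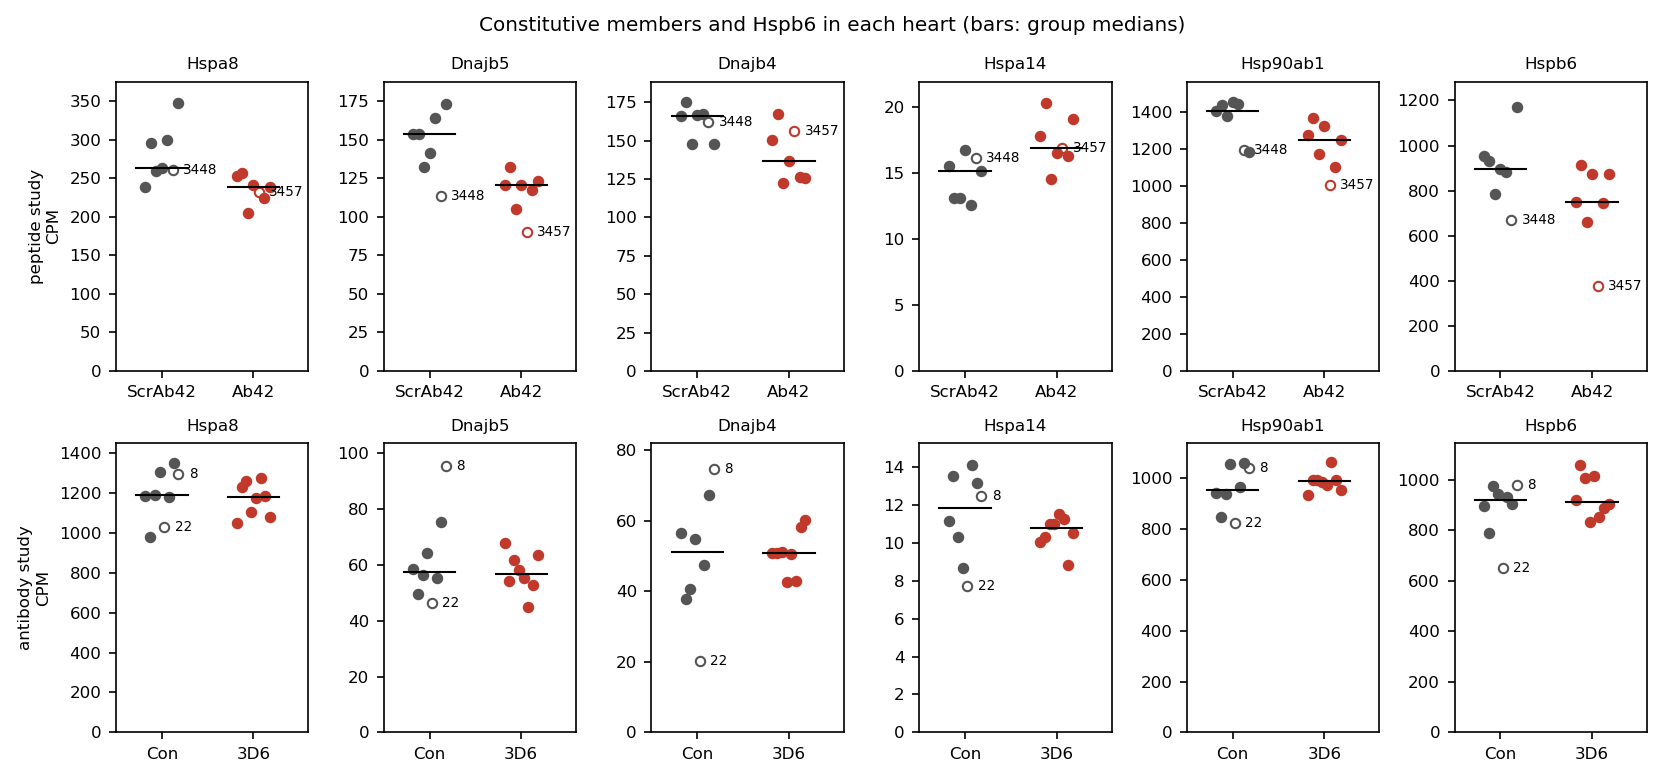
Each point is the CPM of 1 heart, with a bar at the group median, for 5 constitutive cytosolic genes and Hspb6 in the peptide study (top) and the antibody study (bottom); open points mark Abeta42_3457, ScrAbeta42_3448, Con_8 and Con_22. All 7 Ab42 hearts lie below the ScrAb42 median for Hspa8 and Dnajb5, and the antibody groups overlap for every gene.

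Hsp90ab1, the constitutive HSP90 of the cytosol, had 1008 to 1366 CPM with Aβ42 (median 1247) and 1186 to 1454 CPM with ScrAβ42 (median 1405). All 7 Aβ42 hearts lay below the control median and 3 below all controls, and the estimate was -0.16 ± 0.09 (adjusted p = 0.788, edgeR). With 3D6 it was 0.04 ± 0.08. Co-chaperones of HSP90 had estimates of -0.18 for Ptges3 (p23), -0.16 for Stip1, which passes clients from HSP70 to HSP90, -0.10 for Ahsa1, which speeds the HSP90 ATPase, and -0.12 for the immunophilin Fkbp4. These same genes were estimated between -0.06 and 0.00 with 3D6. St13, which holds HSP70 in its ADP state, had -0.06 and 0.08 in the peptide and antibody studies. Of the remaining HSP70 and HSP110 relatives, Hspa2 had an estimate of 0.36 ± 0.23 (0.19 without Abeta42_3457) and Hspa4l of 0.22 ± 0.13 with Aβ42, and Hspa4 and Hspa12a of -0.09 and -0.05. The J-domain genes Dnaja1, Dnaja2 and Dnajb2 had estimates from -0.13 to -0.05 with Aβ42, and from -0.15 to 0.12 with 3D6. Adjusted for the atrial score, Aβ42 estimates in this paragraph turned sign for Hspa2 (-0.015), Fkbp4 (0.053), Dnaja2 (0.036) and Dnajb2 (0.081).

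The mitochondrial chaperones import and fold matrix proteins. Hspa9 (mortalin), the motor of protein import, had 527 to 994 CPM with Aβ42 (median 842) and 628 to 988 CPM with ScrAβ42 (median 800), with Abeta42_3457 lowest and an estimate of -0.04 ± 0.13. Hspd1 (HSP60) had 109 to 160 CPM with Aβ42 and 122 to 197 CPM with ScrAβ42, with an estimate of -0.08 ± 0.11, and its partner Hspe1 (HSP10) had 24.7 to 32.0 CPM and 25.8 to 36.4 CPM, with an estimate of -0.12 ± 0.09. The groups overlapped for all 3 genes, the last 2 of which share the promoter run shown above. Trap1 and Dnaja3, the HSP90 and a J-domain protein of the matrix, had estimates of -0.08 and -0.07. With 3D6, Hspa9 had 430 to 482 CPM beside 271 to 504 CPM in controls, and Hspd1 had 218 to 268 CPM beside 137 to 269 CPM. In each case the controls spanned the 3D6 hearts, with Con_22 lowest. Hspe1 was the 1 mitochondrial gene with a negative estimate (-0.08) in the antibody study. Without Con_22 the 44 genes had 20 estimates above 0 and 24 below.

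The ER chaperones fold secreted and membrane proteins. Hspa5 (BiP), the HSP70 of the ER and a sensor of unfolded proteins there, had 401 to 519 CPM with Aβ42 and 439 to 501.04 CPM with ScrAβ42, with a median of 474 CPM in each group and an estimate of 0.01 ± 0.07. Hsp90b1 (GRP94) had 181 to 232 CPM and 183 to 229 CPM, with an estimate of 0.01 ± 0.08. Hspa13, Dnajb9 and Dnajc3 had estimates of 0.14, 0.05 and -0.06. With 3D6 the estimates were 0.03 ± 0.10 for Hspa5 and -0.03 ± 0.07 for Hsp90b1, and the other 3 genes had 0.11, 0.16 and 0.08. Con_22 was the lowest heart of its study for all 5 ER genes, and without it Hspa13, Dnajb9 and Dnajc3 were estimated at 0.00, 0.06 and 0.04. Without Con_8 the estimate for Hspa13 was 0.24.

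Of the muscle small heat shock genes, Hspb6 (HSP20), which binds contractile and cytoskeletal proteins (chr7:30552178-30555443, plus strand), had 376 CPM in Abeta42_3457 and 659 to 914 CPM in the other Aβ42 hearts. With ScrAβ42 it had 670 to 1172 CPM (median 896). The groups overlapped, 6 of 7 Aβ42 hearts lay below the control median, and the estimate was -0.28 ± 0.17 (adjusted p = 0.807, edgeR), or -0.16 without Abeta42_3457. Hspb7, which binds the thin filament, had 1559 CPM in Abeta42_3457 and 2515 to 3905 CPM in the other Aβ42 hearts, beside 2464 to 3505 CPM with ScrAβ42, and the estimate was -0.06 ± 0.16. Hspb8, the partner of Bag3, was likewise lowest in Abeta42_3457 (240 CPM) with an estimate of 0.01 ± 0.15. Hspb2 and the low-count Hspb3 had estimates of -0.13 and 0.02. Among antibody mice Hspb6 had 831 to 1059 CPM with 3D6 and 650 to 979 CPM in controls (0.08 ± 0.09), and Hspb7 had 1704 to 2426 CPM and 1249 to 2425 CPM (0.05 ± 0.12). Hspb2 varied from 19.4 CPM in Con_8 to 73.6 CPM in Con_22 among controls, the reverse of the order of these 2 hearts for Bag3.

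Hsf1 encodes the factor that turns on the inducible genes and is itself regulated mainly as a protein. It had 32.1 to 39.3 CPM with Aβ42 (median 36.1) and 33.2 to 45.5 CPM with ScrAβ42 (median 39.3), with an estimate of -0.11 ± 0.07 (adjusted p = 0.823, edgeR). It had 24.6 to 32.6 CPM with 3D6 and 26.5 to 32.6 CPM in controls, with an estimate of -0.05 ± 0.08. Hsf2, a factor active in development, was estimated at 0.06 ± 0.08 and 0.13 ± 0.13. The groups overlapped for both genes in both studies.

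Genes that work beside these chaperones were counted from 5 further lists, and their counts stand beside 6.51% of all genes at an unadjusted p under 0.05 with Aβ42 and 3.66% with 3D6. Their signs stand beside 50.5% of all genes above 0 with Aβ42 and 47.2% with 3D6. Among 15 other co-chaperones, 1 had an unadjusted p under 0.05 with Aβ42, Fkbp5, an immunophilin of steroid receptors, at 0.26 ± 0.11, and 12 of 15 estimates were below 0. Of 8 subunits of the chaperonin TRiC, 0 did and 7 were below 0, by at most 0.11. Of 14 ER folding genes, 1 did (Hyou1, an HSP110 of the ER, at -0.20 ± 0.09), and of 8 mitochondrial quality control genes 0 did while all 8 were below 0. Among the genes that are induced together with HSF1 targets, those with an unadjusted p under 0.05 included Jun, a subunit of AP-1, at -0.48 ± 0.08 (adjusted p = 0.119, edgeR), and Ier5, which activates HSF1, at -0.70 ± 0.15 (adjusted p = 0.429, edgeR). Ubb, a polyubiquitin gene, was at -0.07 ± 0.13. With 3D6, 2 genes of the 5 lists had an unadjusted p under 0.05, the ER gene Creld2 at -0.31 ± 0.12 and Fos, a partner of Jun, at 0.86 ± 0.35, and Jun was at -0.06 ± 0.12. The estimates with 3D6 were above 0 for 8 of 15 other co-chaperones and 7 of 8 TRiC subunits. They were above 0 for 5 of 8 mitochondrial quality control genes.

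Which genes moved most like the Hspa1 pair from heart to heart was described by correlation of log2 CPM after group means were subtracted, over 14 hearts of the peptide study and 16 of the antibody study. Dnaja1, the main J-domain partner of HSC70, ranked first of 11359 genes by the lower of the 2 studies' r. Its Pearson r was 0.76 (permutation p = 0.00155, adjusted p = 0.0856) and its Spearman rho 0.63 (p = 0.0187) in the peptide study, and r was 0.74 (p = 0.00461, adjusted p = 0.150) and rho 0.39 (p = 0.130) in the antibody study. Hsph1 ranked ninth, with r of 0.81 (p = 0.0003, adjusted p = 0.0808) and rho of 0.88 (p = 0.00013) and with r of 0.68 (p = 0.00366, adjusted p = 0.147) and rho of 0.53 (p = 0.0385). The 8 other genes of the first 10 were Calhm5, Far1, Ccdc50, Dcaf10, 1190002N15Rik, Slc39a6, Zc2hc1a and Rbbp9. These permutation tests are two-sided and adjusted over all genes of each study, of which 2 passed for peptide and 0 for antibody (3276 and 2974 at an unadjusted p under 0.05).

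The likeness was then described without the 2 hearts of each study whose Hspa1 level lay farthest from the median (Abeta42_3457 and ScrAbeta42_3448, and Con_8 and Con_11). For Dnaja1 r was then 0.43 and -0.03, lower in both studies. For Hsph1 it was 0.82 and 0.35, lower only in the antibody study. Of the first 10 genes by r, 3 were also among the first 10 by rho and 0 among the first 10 without those hearts. Within the list, Hsp90aa1 had r of 0.88 and 0.58 with the pair, Dnajb1 0.49 and 0.80, and Chordc1 0.57 and 0.65, in the peptide and antibody studies. Cryab had r of -0.66 and -0.58, and Hspb1 had r of 0.76 and -0.18. Over the 8 inducible genes outside the pair the median r was 0.53 in each study and fell to 0.24 and 0.20 without those hearts. It was 0.04 and 0.00 over all genes tested. By class it was 0.35 and 0.49 for ER genes, 0.04 and 0.39 for constitutive cytosolic and -0.55 and 0.36 for mitochondrial genes. For muscle small heat shock genes it was -0.63 and -0.18, and for the heat shock factors 0.11 and 0.14. All genes of a heart come from 1 library, so its depth and tissue makeup are shared by every pair of genes compared.

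How the outlying hearts differ was also described by transcript length, splitting the 44 genes at a median length of 2549 bases into 22 shorter and 22 longer ones. This split follows the classes in part. All inducible genes but Hspb1 and Cryab were among the longer ones, and all muscle small heat shock genes but Hspb7 among the shorter. Length and class therefore cannot be told apart here. The hearts were picked from these same values, and no such split over all genes is given. In control antibody heart Con_22, the longer genes had a median log2 deviation of -0.59 from the median heart of the study and the shorter ones of -0.23. In Con_8 the medians were 0.38 for longer and 0.05 for shorter genes, the opposite order. Abeta42_3457 had 0.20 for longer and -0.13 for shorter genes. The difference between shorter and longer genes was 0.36, -0.33 and -0.33 in these 3 hearts, and between -0.18 and 0.17 in the other 27. Con_22 also had the lowest share of counts from the mitochondrial genome in its study (26.0%, against 28.8% to 37.9% in the other 15 hearts), and Abeta42_3457 the lowest in the peptide study (12.9%). The part of tissue makeup in these values was not tested.

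The levels of some genes differed between the 2 tables far more than between groups within either. Hspa8 had a mean of 281 ± 36.4 CPM with ScrAβ42 and 1189 ± 130 CPM with control antibody (SD, n = 7 and 8). Hsp90aa1 had 26.0 ± 3.85 and 125 ± 26.2 CPM, and Hspb1 had 53.0 ± 5.66 and 222 ± 26.7 CPM, while Hsp90b1 had 201 ± 18.2 and 211 ± 19.2 CPM. Most listed genes had a lower mean with control antibody than with ScrAβ42, unlike the genes just named. Dnajb4 was the lowest relative to ScrAβ42, with 162 ± 10.3 and 49.98 ± 17.3 CPM. The tables were made and normalized separately, from gene counts and from transcript estimates of different mice. Treatment, diet, age at collection and processing cannot be told apart here.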

How the data were processed

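Left ventricle RNA of 30 mice was sequenced by the authors as stranded total RNA, mapped with Salmon (version not given in the sources used here) to the GENCODE vM24 transcriptome. The authors' deposited peptide table holds whole-number counts by Ensembl gene. Their deposited antibody table holds estimated counts by transcript, which the authors took from Salmon and which were summed here to genes with GENCODE vM21 and rounded; 0.38% of them, on transcripts not in that annotation, were dropped. A count column matching no labelled sample (1) was not used.

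Each study was fitted separately on all genes whose mean count reached 10 (edgeR 4.0.16, R 4.3.3, TMM, quasi-likelihood test, two-sided, Benjamini-Hochberg). Fold changes are treated against control. Log2 CPM used a prior count of 2. Alternatives were DESeq2 1.42.0, limma-voom (limma 3.58.1), other scalings and filters, an atrial score or mitochondrial share as a covariate, and leaving out each heart. Tested on simulated data in which 200 genes differed by 1 log2 unit, the fit recovered 81.5% with 4 false calls among 11887 genes (peptide) and 89.5% with 11 false calls among 12077 (antibody). No pair of hearts was alike enough to be 1 library deposited again. Correlations used 100000 permutations.

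The members and lists were chosen with earlier results of these data known. Every member was named. Values in full went to main members of each class and to those with an unadjusted p under 0.05. Promoter windows came from RefSeq (GRCm38.p6), motifs were searched in 300 bases. TPM values used full transcript lengths. No batch is given in the labels, so p-values measure the spread between these hearts. Mouse numbers ran from 3441 to 3449 with ScrAβ42 and from 3451 to 3460 with Aβ42, while those of the antibody groups were mixed. Whether the numbers follow housing or handling is not given. Any such order cannot be told apart from the peptide. A gene of the further lists is not reported here.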

Additional observations from a re-analysis of the deposited data

Results flagged for a closer look

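Single hearts lay far from the rest of their group, by Dixon's test on log2 CPM, in 23 of 176 groups of hearts (13.1%). Chance would flag about 1 in 20 such groups (5%) if they were independent. They are not, because all genes of a study are read from the same hearts, so 13.1% is not tested against 5%. The share flagged over all genes is not given, so whether chaperone genes stand out here is not shown. Heart Abeta42_3457 stood apart at 39.7 CPM for Hsp90aa1, 779 CPM for Cryab, 241 CPM for Dnaja2, 92 CPM for Dnajc3 and 376 CPM for Hspb6. Heart ScrAbeta42_3445 stood apart at 73.3 CPM for Hsph1. Heart Abeta42_3460 stood apart at 14.3 CPM for Ptges3. Heart ScrAbeta42_3449 stood apart at 92 CPM for Stip1 and 97 CPM for Ahsa1. Heart ScrAbeta42_3448 stood apart at 138 CPM for Trap1. Heart Abeta42_3455 stood apart at 1.91 CPM for Hspb3. Heart Con_8 stood apart at 184 CPM for Hsp90aa1. Heart Con_22 stood apart at 283 CPM for Hspb1, 149 CPM for Bag3, 94.1 CPM for Dnaja2, 210 CPM for Fkbp4, 271 CPM for Hspa9, 137 CPM for Hspd1, 43.5 CPM for Dnaja3, 193 CPM for Hspa5, 10.3 CPM for Dnajb9 and 1250 CPM for Hspb7. Heart 3D6_24 stood apart at 76.8 CPM for Stip1. Con_22 had 10 of the 12 such values in the antibody study and Abeta42_3457 had 5 of the 11 in the peptide study, and the causes were not tested. On CPM without logs, a scale added after the data were seen, the same test gave 24 values, of which 15 were the same hearts and genes. There Abeta42_3457 had 4, including Hspa1b at 39.4 CPM and without Cryab and Hspb6, ScrAbeta42_3448 had 5, including Hspa1a at 13.7 CPM and Hspb3 at 7.03 CPM, and Con_22 had 5.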

How the results depend on the processing

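No chaperone gene passed the adjusted threshold under any alternative run. DESeq2 called 12 genes of the whole peptide table, and leaving out each heart in turn gave 0 to 3. Log2 fold changes turned sign as follows, and the cause was not tested. In the antibody table with limma-voom, the estimate was -0.012 for Ahsa1, 0.037 for Dnaja4, 0.0066 for Fkbp4 and 0.10 for Hspa1b. In the antibody table scaled to total counts, the estimate was -0.044 for Ahsa1 and -0.0058 for Hspa5. In the antibody table adjusted for the mitochondrial share of counts, the estimate was -0.043 for Bag3, -0.057 for Chordc1, 0.035 for Cryab, 0.030 for Dnajb2, -0.13 for Dnajb4, -0.0094 for Dnajc3, -0.037 for Hspa13, -0.043 for Hspa4, -0.0081 for Hspa4l, -0.049 for Hspa5, 0.18 for Hspb2, -0.0033 for Hspb7, -0.022 for Hsph1 and -0.021 for St13. In the peptide table adjusted for the atrial score, the estimate was 0.012 for Bag3, -0.015 for Chordc1, 0.14 for Cryab, 0.036 for Dnaja2, 0.11 for Dnaja3, 0.081 for Dnajb2, 0.053 for Fkbp4, -0.0044 for Hsf2, -0.080 for Hsp90b1, -0.072 for Hspa13, -0.17 for Hspa1a plus Hspa1b, -0.12 for Hspa1a, -0.37 for Hspa1b, -0.015 for Hspa2, 0.15 for Hspa9, -0.19 for Hspb3, 0.12 for Hspb7, 0.054 for Hspd1 and 0.11 for Trap1. In the peptide table with limma-voom, the estimate was -0.00042 for Chordc1, -0.22 for Hspa1a and -0.018 for Hspb8. In the peptide table with RLE size factors, the estimate was -0.0018 for Chordc1. In the antibody table with DESeq2, the estimate was 0.0027 for Dnajb2 and 0.0039 for Fkbp4. In the antibody table with RLE size factors, the estimate was 0.0024 for Dnajb2 and 0.0038 for Fkbp4. In the antibody table with no filter on low counts, the estimate was 0.0090 for Dnajb2 and 0.0085 for Fkbp4. In the peptide table with DESeq2, the estimate was -0.48 for Hspa1b. Leaving out each peptide heart in turn, the estimate ran from -0.061 to 0.041 for Chordc1, -0.076 to 0.058 for Cryab, -0.13 to 0.00028 for Dnaja1, -0.12 to 0.019 for Dnaja3, -0.029 to 0.043 for Hsp90b1, -0.095 to 0.00083 for Hspa12a, -0.41 to 0.78 for Hspa1a plus Hspa1b, -0.34 to 0.43 for Hspa1a, -0.53 to 1.17 for Hspa1b, -0.013 to 0.047 for Hspa5, -0.096 to 0.044 for Hspa9, -0.067 to 0.25 for Hspb3, -0.16 to 0.043 for Hspb7, -0.053 to 0.11 for Hspb8 and -0.12 to 0.00050 for Hspd1. Leaving out each antibody heart in turn, the estimate ran from -0.040 to 0.043 for Ahsa1, -0.0059 to 0.14 for Bag3, -0.12 to 0.054 for Dnaja4, -0.039 to 0.033 for Dnajb2, -0.083 to 0.13 for Dnajb4, -0.055 to 0.028 for Fkbp4, -0.055 to 0.0018 for Hsp90b1, -0.17 to 0.21 for Hspa1b, -0.025 to 0.068 for Hspa5, -0.053 to 0.0053 for Hspa8, -0.23 to 0.058 for Hspb2 and -0.021 to 0.095 for Hspb7. No paired analysis was possible because the groups compared share no mouse numbers. Depth was lowest for Hspb3 in the peptide table, at a mean of 20.7 counts, and for Hspa1a in the antibody table, at 21.6.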
